A study of Mus musculus with 39 samples.

Results

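Bile acid synthesis and transport in mouse liver were followed through 10 genes: the enzymes Cyp7a1, Cyp8b1, Cyp27a1 and Cyp7b1, the conjugating enzymes Slc27a5 and Baat, the transporters Slc10a1 and Abcb11, and the nuclear receptors Nr1h4 and Nr0b2. They were found on the array through the RefSeq accession that the array files give for each probe, and every gene of the set was present. They are 10 of 17016 named genes, and 12 of the 25903 RefSeq probes tested. Cyp7a1 and Baat had 2 probes each, and a gene was read from the probe with the brightest liver signal.

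Livers came from male C57BL/6J mice that arrived at 5 to 6 weeks of age and were singly housed. AggE mice lived through aggressor exposure, which placed them for 6 hrs a day in the cage of a trained SJL male without food or liquid, with 3 brief direct contacts a session, for 5 or 10 days. Ctrl mice kept the same schedule, food deprivation included, in fresh bedding with no aggressor. Whole liver was taken 24 hrs after the 5-day regimen (4 Ctrl, 5 AggE), 24 hrs after the 10-day regimen (4 Ctrl, 5 AggE), 1.5 wks after the 5-day regimen (4 Ctrl, 5 AggE) and 4 wks after the 10-day regimen (6 Ctrl, 6 AggE), each time 1 hr after all mice met the aggressor cue in a partition test. For the 1.5 wk mice the labels do not fully agree, since 10 days stands in the title of every AggE mouse and 1 Ctrl mouse but 5 days in their descriptions, which were followed here. For the AggE mice taken 24 hrs post-5-day, 1 line of the description names 1 day of stress and another names 5 days, and the latter was followed. Every value below is a log2 ratio of liver RNA (Cy5) to a common reference RNA pooled from mouse cell lines (Cy3) on 1 array per mouse. A difference of 1 between groups on this scale is a 2-fold difference. Because whole liver was measured, fewer cells of a type and less RNA per cell cannot be told apart.

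Hepatocytes make bile acids from cholesterol along a classical route opened by Cyp7a1, the rate-limiting enzyme of bile acid synthesis, and an alternative route opened by Cyp27a1 and continued by Cyp7b1. Cyp8b1 adds the hydroxyl group that turns the product into cholic acid. Slc27a5 couples the acid to coenzyme A and Baat joins it to taurine or glycine, after which Abcb11, the bile salt export pump, moves it into bile and Slc10a1 brings returning bile salts back from blood. Nr1h4 (FXR) is the bile acid receptor, and Nr0b2 (SHP) is the repressor it induces, which lowers Cyp7a1 and Cyp8b1 transcription. Cyp7a1 is also known for a strong daily rhythm.

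The promoters of the 3 genes that passed the test 4 wks after stress are shown with that of Abcb11, the gene with the most negative difference at that time. Each is the 250 bases before an annotated start (RefSeq, build GRCm38.p6), read 5′ to 3′ on the gene's strand, with the nuclear receptor core motif AGGTCA (either strand) and the TATA element TATAAA (either strand) in capitals. The 6 matched members had 7 entries, 2 of them for Slc10a1. The windows of Cyp27a1, of Nr1h4 and of the Slc10a1 entry with the core motif lay inside the annotated gene. They thus precede an internal start, not the outermost one. Cyp7a1, Cyp7b1, Baat and Slc27a5 had no entry in the promoter table.
Cyp8b1 (chr9:121916306-121916555, - strand): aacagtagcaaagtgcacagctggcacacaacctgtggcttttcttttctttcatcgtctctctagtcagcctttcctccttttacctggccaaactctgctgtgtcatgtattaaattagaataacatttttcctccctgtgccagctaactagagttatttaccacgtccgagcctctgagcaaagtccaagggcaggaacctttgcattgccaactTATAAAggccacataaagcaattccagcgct
Cyp27a1 (chr1:74713285-74713534, + strand): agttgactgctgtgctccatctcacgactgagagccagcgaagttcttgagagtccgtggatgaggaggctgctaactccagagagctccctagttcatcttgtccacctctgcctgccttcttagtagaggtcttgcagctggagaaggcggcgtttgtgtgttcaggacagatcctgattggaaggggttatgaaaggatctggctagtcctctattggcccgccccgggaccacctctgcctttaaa
Nr0b2 (chr4:133553126-133553375, + strand): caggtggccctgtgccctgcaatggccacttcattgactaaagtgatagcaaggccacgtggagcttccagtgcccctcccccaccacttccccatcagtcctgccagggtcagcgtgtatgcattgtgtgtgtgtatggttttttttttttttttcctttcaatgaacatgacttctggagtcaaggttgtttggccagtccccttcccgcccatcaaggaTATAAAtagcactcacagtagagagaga
Abcb11 (chr2:69342617-69342866, - strand): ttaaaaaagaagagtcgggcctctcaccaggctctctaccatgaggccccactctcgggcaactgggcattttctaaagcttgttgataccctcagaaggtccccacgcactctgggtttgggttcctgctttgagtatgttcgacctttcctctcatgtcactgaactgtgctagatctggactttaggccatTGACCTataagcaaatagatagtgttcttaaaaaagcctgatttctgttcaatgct
The TATA element stood at position -31 of Cyp8b1, -28 of Nr0b2 and -128 of 1 Slc10a1 entry, and it is found in 12.4% of all 32851 promoters of this length. The Cyp27a1 window held no match to any motif searched. The core motif was present at position -56 of Abcb11, at -214 of Nr1h4 and at -87 of the other Slc10a1 entry, against 14% of all promoters. Its inverted repeat AGGTCANTGACCT, the arrangement best known for binding Nr1h4 with its partner receptor, was in none of the 7 windows and in 0.00609% of all promoters. The E-box CACGTG, bound by the circadian activators, stood once in Nr0b2, at position -195, against 6.02% of all promoters.

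Arrays differed in how much of the liver signal stood clear of background. The share of RefSeq probes called well above background in Cy5 by the scanner software ran from 20.0% to 57.5% at 1.5 wks, from 21.1% to 54.9% at the 24 hr points and from 51.1% to 79.6% at 4 wks. Arrays of 11 slides and 2 scan days were used, with Ctrl and AggE on separate slides at both 24 hr points, so slide and group cannot be told apart there. All 7 hepatocyte markers found on the array, Alb and Ttr among them, were well above background on every array, and the marker lists of other cell types are given further on. Of the 10 genes, 6 (Cyp7b1, Baat, Slc27a5, Slc10a1, Abcb11 and Nr1h4) were well above background on all 39 arrays, Cyp7a1 on 37, Cyp27a1 on 36, Cyp8b1 on 34 and Nr0b2 on 20. The reference spots in Cy3 were well above background on fewer arrays: 0 for Cyp8b1, 2 for Cyp7a1, 12 for Nr0b2, 14 for Slc10a1 and 17 for Cyp27a1. For the other genes the number ran from 22 (Baat) to 39 (Slc27a5). Where it is low, the ratio rests on a reference near background.

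At 4 wks post-10-day stressor, Cyp8b1, Cyp27a1 and Nr0b2 were higher in AggE than in Ctrl liver, by 1.93-fold, 2.10-fold and 1.41-fold, the last from spots well above background on 3 of 6 Ctrl and 5 of 6 AggE arrays. The folds are of ratios whose reference spots were not well above background on most of the 39 arrays. These 3 of 10 genes passed a limit of 0.05 on the p-value of limma's moderated test after Benjamini-Hochberg adjustment over all probes, which is what a call means here, and none of the 10 was called lower. Of all genes, 4.05% (689) were called at this time, 1.36% higher and 2.69% lower. That count was 1614, 125 and 117 without AggE mouse 1, 2 and 3, and 1415, 182, 298 and 444 without Ctrl mouse 2, 3, 4 and 5. With slide as a random block it was 11. Abcb11 lay at 0.484-fold, Baat at 0.506-fold and Slc10a1 at 1.67-fold in AggE, short of the limit with adjusted p-values of 0.0907, 0.124 and 0.116. Under the same limit on the p-value before adjustment, 6 of 10 passed (Cyp8b1, Cyp27a1, Nr0b2 and Slc10a1 higher, Abcb11 and Baat lower), against 22.4% of all genes, 9.88% higher and 12.5% lower. All 3 calls lay close to the limit and each was lost under most other ways of processing the arrays, as described with the slides below. The set held 5 genes with a higher and 5 with a lower mean in AggE, and its median log2 difference was -0.20, beside 0.01 over all genes.

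**Figure D1:**
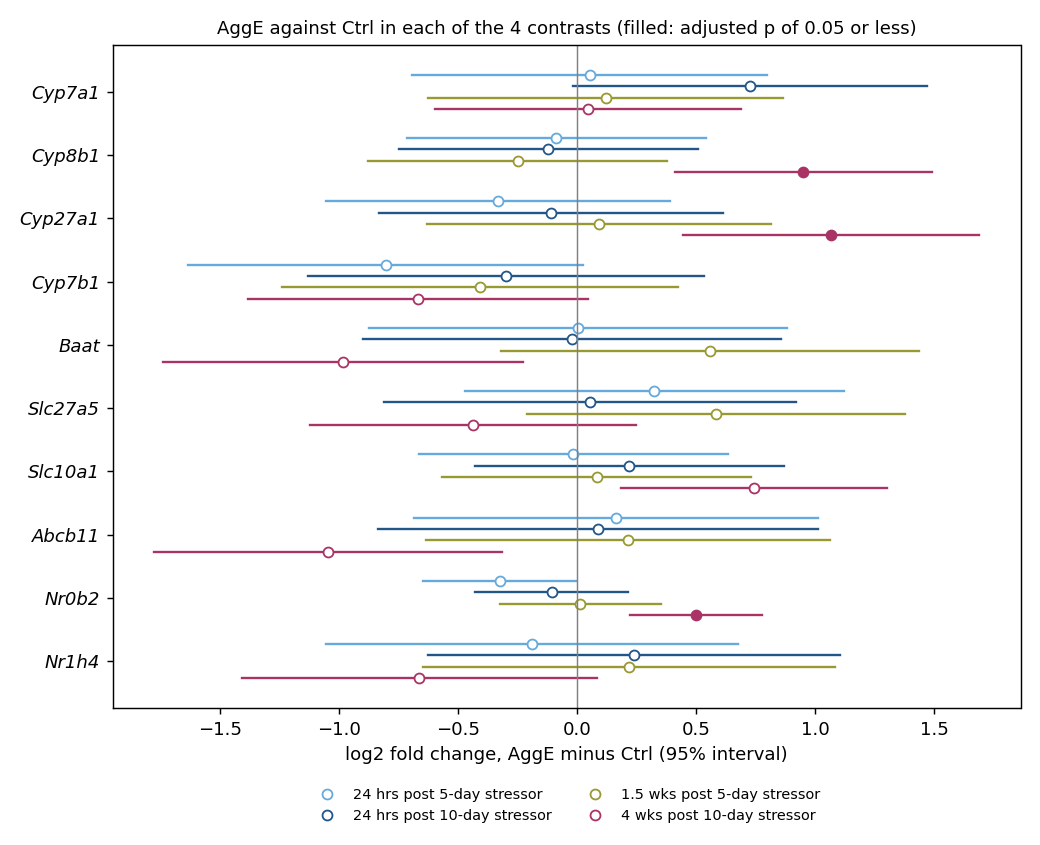
Log2 fold change of AggE over Ctrl (horizontal axis, with 95% interval) for each of the 10 genes in the 4 contrasts, with filled points where the adjusted p was 0.05 or less. Only the 4 wk points of Cyp8b1 (0.95), Cyp27a1 (1.07) and Nr0b2 (0.50) are filled, and the other 37 are open.

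At the other 3 points no member was called. At 24 hrs post-5-day stressor, 0 of 10 passed the adjusted limit against 3.29% of all genes (559, or 247, 304, 328 and 206 without Ctrl mouse 1, 2, 3 and 4, and 9 with slide as a random block), and 1 (Nr0b2, lower in AggE) passed the unadjusted limit against 16.8%. At 24 hrs post-10-day, 0 of 10 passed the adjusted limit against 0.0940%, and 0 the unadjusted limit against 2.87%. At 1.5 wks, 0 of 10 passed either limit in limma's test, against 0% of all genes for the adjusted and 2.44% for the unadjusted limit. The ranges of Ctrl and AggE mice overlapped for all 10 genes at every point, while they were apart for 7.48%, 1.87%, 0.799% and 1.83% of all genes in the same order of the contrasts, 4 wks last. No member was called for the difference between contrasts, where 0.0353% (24 hrs post-5-day against post-10-day), 0.0940% (24 hrs against 1.5 wks) and 0.0823% (24 hrs against 4 wks) of all genes were. For the last of these, Cyp8b1 (-1.07 ± 0.41 SE), Cyp27a1 (-1.18 ± 0.47) and Nr0b2 (-0.61 ± 0.21) passed the unadjusted limit, 3 of 10 against 10.0% of all genes, with adjusted p-values of 0.472, 0.492 and 0.432.

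**Figure D2:**
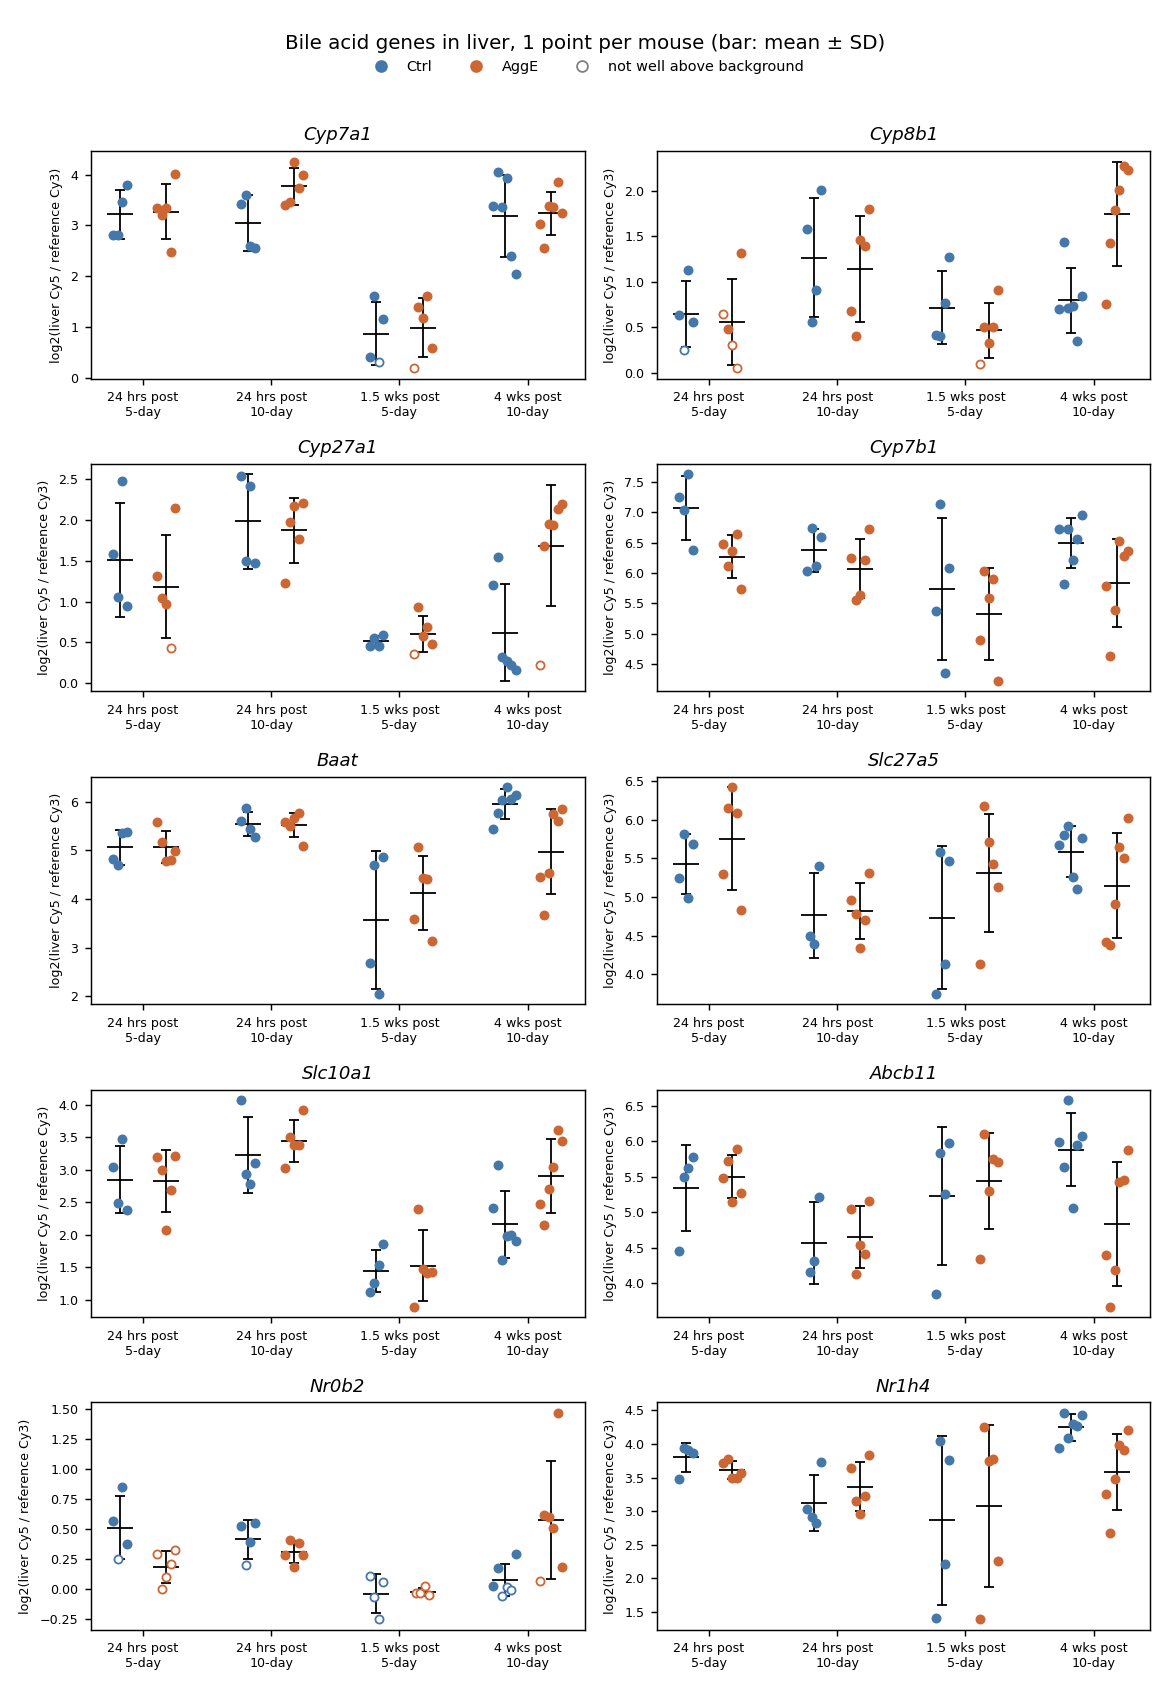
Log2 ratio of liver Cy5 to reference Cy3 (vertical axis) in every mouse for the 10 genes, Ctrl in blue and AggE in orange at each of the 4 points, with bars for mean ± SD and open symbols where the spot was not well above background. At 4 wks 5 of 6 AggE mice lie above every Ctrl mouse for Cyp27a1, and at 1.5 wks Cyp7a1 is low in both groups.

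Cyp7a1 (chr4:6265612-6275632) opens the classical route. Its values 24 hrs post-10-day stressor were 3.43, 3.60, 2.59 and 2.55 in Ctrl and 3.39, 3.45, 4.25, 3.74 and 4.00 in AggE. Of the 5 AggE mice, 3 lay above every Ctrl mouse. The difference of 0.73 ± 0.37 (SE) was short of both limits, with an unadjusted limma p of 0.0557 and an adjusted p of 1. The second, dimmer probe of Cyp7a1 gave 0.13 ± 0.26 for the same contrast, so the 2 probes gave different estimates. At 24 hrs post-5-day, Ctrl livers had 2.82, 2.81, 3.46 and 3.79 and AggE livers 3.33, 3.20, 3.34, 2.48 and 4.01, a difference of 0.05 with a 95% interval from -0.69 to 0.80. At 4 wks the lowest, median and highest values were 2.04, 3.36 and 4.05 in Ctrl and 2.56, 3.30 and 3.85 in AggE, a difference of 0.05 with an interval from -0.60 to 0.69. The second probe differed there by 0.48 ± 0.22, with an adjusted p of 0.207.

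At 1.5 wks Cyp7a1 stood low in both groups. Ctrl values were 0.41, 1.61, 0.31 and 1.17 and AggE values 0.19, 1.39, 1.17, 1.62 and 0.60, against 2.04 to 4.25 in the other 30 mice. No 1.5 wk mouse reached the lowest of the others, and the medians were 2.20 apart on the log2 scale (1.17 against 3.36). Of 16448 genes measured on every array, 0.632% had all 1.5 wk mice below all other mice in this way and 0.334% above. On the brighter probe the difference held on slides that carried mice of both kinds: on slide 6 the 3 AggE mice at 1.5 wks ranged from 0.19 to 1.62 beside 4.01 in the 1 AggE mouse taken 24 hrs post-5-day, on slide 8 the 1 Ctrl mouse at 1.5 wks had 1.17 beside 3.35 to 4.05 in 3 Ctrl mice at 4 wks, and on slide 11 the values were 1.39 at 1.5 wks and 3.25 at 4 wks in 1 AggE mouse each. On the second probe it held on slides 6 and 11 but not on slide 8. There the mouse at 1.5 wks had 0.725, within the 0.48 to 1.53 of the 3 mice at 4 wks. With the second probe or with any of the 6 other ways of making the ratios that were tried after these values were seen, the median stayed lower at 1.5 wks by 0.80 to 2.81, but the ranges overlapped. Mice of different points were not compared by a test, and the hour of collection for each group is not given in the sources used here.

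Of the other 9 genes, 6 had a lower median at 1.5 wks, with differences from -1.58 (Slc10a1) to -0.29 (Cyp8b1), and 3 did not (Abcb11 0.44, Slc27a5 0.14 and Nr1h4 0.02). Median log2 ratios at 1.5 wks and in the other mice were 0.56 and 1.52 for Cyp27a1, 1.43 and 3.01 for Slc10a1, 4.41 and 5.47 for Baat, and 5.71 and 5.26 for Abcb11. For all 9 genes the ranges overlapped. On slide 6, Slc10a1 had 0.89 to 1.48 at 1.5 wks and 3.21 in the mouse taken 24 hrs post-5-day, but on slide 8 the 1.5 wk mouse (1.85) lay within the range of the 4 wk mice (1.62 to 3.08). The hepatocyte list's array medians ran from 6.14 to 7.52 at 1.5 wks and from 5.06 to 6.76 elsewhere. For the clock list, many of whose genes were near background, the group medians at 1.5 wks (-0.04 in AggE, -0.03 in Ctrl) were below those of the other 6 groups (-0.01 to 0.07), while array medians overlapped. Single clock genes, chosen here after their values were seen, were not alike. Hlf averaged 0.51 in AggE and 0.38 in Ctrl at 1.5 wks against 1.44 to 2.03 in the other groups. Dbp averaged -0.22 in AggE, within the -1.14 to -0.16 of the other groups, and -0.01 in Ctrl, above them. The part of these genes in the level of Cyp7a1 was not tested.

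Within the 1.5 wk point, no difference between AggE and Ctrl mice passed either limit for the 10 genes. The estimates ran from -0.41 (Cyp7b1) to 0.58 (Slc27a5), and 8 of 10 were above 0. Spread was wide: Nr1h4 had 1.42, 4.05, 2.22 and 3.76 in Ctrl and 1.39, 4.25, 3.74, 3.77 and 2.25 in AggE. Baat had 2.68, 4.69, 2.05 and 4.85 in Ctrl and 3.58, 5.06, 4.44, 4.41 and 3.14 in AggE. The 95% interval for Nr1h4, from -0.65 to 1.09, still held a 2-fold higher level. AggE mouse 1 lay below every Ctrl mouse in 5 genes and AggE mouse 2 above every Ctrl mouse in 6. These 2 arrays also stood apart in signal: 20.0% of probes were well above background for mouse 1 and 57.5% for mouse 2, which was on slide 11 and the second scan day, against 28.8% to 29.5% for the other 3 AggE mice, all scanned on the first. The part of signal and slide in these values was not tested.

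Cyp8b1 (chr9:121914356-121916305) sets the share of cholic acid among bile acids. At 4 wks the lowest, median and highest log2 ratios were 0.35, 0.72 and 1.44 in Ctrl and 0.75, 1.90 and 2.28 in AggE. Of the 6 AggE mice, 4 lay above every Ctrl mouse, and mouse 1 lay at 0.75, within the Ctrl range. The difference was 0.95 ± 0.27 (SE), adjusted p = 0.0409. At the earlier points it was -0.09 ± 0.31 (24 hrs post-5-day), -0.12 ± 0.31 (24 hrs post-10-day) and -0.25 ± 0.31 (1.5 wks). The Ctrl values 24 hrs post-10-day (1.58, 0.56, 0.91 and 2.01) spread over most of the range that AggE mice covered at 4 wks.

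Cyp27a1 (chr1:74713148-74737897), the mitochondrial enzyme that opens the alternative route, had 0.16, 0.30 and 1.54 as lowest, median and highest Ctrl values at 4 wks and 0.22, 1.94 and 2.20 in AggE. Of the 6 AggE mice, 5 lay above every Ctrl mouse. Mouse 1 lay far below the other 5, on a spot that was not well above background. The difference was 1.07 ± 0.31 (SE), adjusted p = 0.0462. At 24 hrs the values were 1.58, 1.05, 2.48 and 0.94 in Ctrl and 1.32, 1.04, 0.97, 0.43 and 2.15 in AggE post-5-day. Post-10-day, Ctrl had 2.54, 1.50, 2.42 and 1.47 and AggE 1.23, 1.98, 2.18, 1.77 and 2.21. All of these lay above the Ctrl median of 4 wks, 0.30.

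Cyp7b1 (chr3:18071944-18243890) hydroxylates the oxysterols of the alternative route. It had a lower mean in AggE in all 4 contrasts, and it was called in none. How many of all genes kept 1 direction in all 4 contrasts was not counted. At 24 hrs post-5-day Ctrl livers had 7.25, 7.04, 7.62 and 6.37 and AggE livers 6.48, 6.11, 6.36, 6.65 and 5.74. Of the 5 AggE mice, 3 lay below every Ctrl mouse. That difference was -0.80 ± 0.41 (SE), adjusted p = 0.309. It turned to 0.93 (adjusted p = 0.543) with the processed signals of the scanner software. The other estimates were -0.30 ± 0.41 (24 hrs post-10-day), -0.41 ± 0.41 (1.5 wks) and -0.67 ± 0.35 (4 wks, adjusted p = 0.282), the last turning to 0.18 with Cy5 alone.

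Slc27a5 (chr7:12988346-12998192) and Baat (chr4:49489416-49507915) carry out the last steps before export. For Baat at 4 wks the lowest, median and highest values were 5.44, 6.04 and 6.30 in Ctrl and 3.68, 5.07 and 5.84 in AggE. Mice 1, 2 and 3 of the AggE group lay below every Ctrl mouse and the other 3 inside the Ctrl range. The difference was -0.98 ± 0.37 (SE), adjusted p = 0.124. The second probe of Baat gave 0.01 ± 0.25 with medians of 2.60 in Ctrl and 2.66 in AggE, so the 2 probes disagreed. At the 24 hr points Baat differed by 0.00 (95% interval from -0.87 to 0.88) and -0.02 (from -0.90 to 0.85). Slc27a5 at 4 wks had 5.10, 5.71 and 5.92 in Ctrl and 4.38, 5.21 and 6.02 in AggE, a difference of -0.44 ± 0.34 (adjusted p = 0.498). Its largest positive estimate was 0.58 ± 0.39 at 1.5 wks. One Ctrl spot of Slc27a5 24 hrs post-10-day was marked as an outlier and left out, as was the Abcb11 spot of the same mouse.

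Abcb11 (chr2:69238282-69342616), the export pump, had 5.06, 5.97 and 6.58 as lowest, median and highest Ctrl values at 4 wks and 3.67, 4.91 and 5.88 in AggE. The same 3 AggE mice lay below every Ctrl mouse and the other 3 within the Ctrl range. The difference was -1.05 ± 0.36 (SE), or 0.484-fold, adjusted p = 0.0907. At the earlier points it was 0.16 ± 0.42, 0.09 ± 0.45 and 0.22 ± 0.42. Slc10a1 (chr12:80953185-80968705), the uptake carrier, went the other way at 4 wks, with 1.62, 1.98 and 3.08 in Ctrl and 2.15, 2.87 and 3.62 in AggE. Of the AggE mice, 2 lay above every Ctrl mouse. The difference was 0.74 ± 0.27, adjusted p = 0.116, and at the earlier points it was between -0.02 and 0.22.

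Nr1h4 (chr10:89454234-89533645) had 3.93, 4.28 and 4.46 as lowest, median and highest Ctrl values at 4 wks and 2.68, 3.69 and 4.20 in AggE. Of 6 AggE mice, 4 lay below every Ctrl mouse, and the difference was -0.66 ± 0.37 (SE), adjusted p = 0.312. Nr0b2 (chr4:133553376-133556686), its target, had -0.06, 0.02 and 0.29 in Ctrl and 0.07, 0.55 and 1.47 in AggE. Of 6 AggE mice, 4 lay above every Ctrl mouse, and the difference was 0.50 ± 0.14, adjusted p = 0.0375. Its spots were dim, well above background on 3 of 6 Ctrl arrays and 5 of 6 AggE arrays at 4 wks. AggE mouse 5, at 1.47, was the highest, and without it the difference was 0.32 with an adjusted p of 0.0715.

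Nr0b2 lay the other way at 24 hrs post-5-day. Ctrl livers had 0.56, 0.25, 0.85 and 0.38, with 3 of 4 arrays well above background, and AggE livers 0.29, 0.00, 0.10, 0.21 and 0.33, with none of 5. Of the AggE mice, 3 lay below every Ctrl mouse. The fit on ratios gave -0.32 ± 0.16 (SE), adjusted p = 0.281, and it rests on AggE spots that did not stand clear of background. Over all probes, 21.1% to 37.0% were well above background on these AggE arrays against 33.3% to 40.2% on the Ctrl arrays. The part of this in the Nr0b2 values was not tested. A lower limit on the fold is not given, because the one computed from Cy5 alone was above the fold of the ratios. At 1.5 wks no Ctrl array and 1 AggE array, whose spot was left out as an outlier, were well above background, and no fold is given.

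The AggE mice at 4 wks differed among themselves. In mice 1, 2 and 3 the same 5 genes, Cyp7b1, Baat, Slc27a5, Abcb11 and Nr1h4, lay below every Ctrl mouse in the ratio to the reference. In mice 4 and 6 none of the 5 did, and in mouse 5 only Nr1h4 did. Relative to the Ctrl mean, the 5 genes ranged from -1.51 to -0.71 in mouse 1, from -2.28 to -1.21 in mouse 2 and from -1.69 to -0.67 in mouse 3, and from -0.45 to 0.43 in the other 3. Before normalization, the Cy5 spots of mice 1, 2 and 3 were not low in this way. Nr1h4 had 1814, 939.5 and 1982 beside 459 to 1737 in Ctrl mice, and Abcb11 5456, 2595 and 3862 beside 2942 to 10150. The second Baat probe gave ratios of 2.69, 2.12 and 2.42 in these mice, inside the Ctrl range of 1.68 to 3.28. Cyp8b1, Cyp27a1 and Nr0b2 divided the mice in another way: mouse 1 was inside the Ctrl range for all 3, mice 3, 4 and 5 above it for all 3, mouse 2 above it for Cyp27a1 and Nr0b2, and mouse 6 for Cyp8b1 and Cyp27a1. In mouse 1 the spots of Cyp27a1 and Nr0b2 were not well above background. The hepatocyte list's array medians for mice 1 to 6 were 5.62, 5.17, 5.36, 6.02, 5.24 and 6.08, and those of the Ctrl mice ran from 5.16 to 6.27. The 7 hepatocyte genes all had a lower mean in AggE at 4 wks (median -0.33, none called), and the part of this in the lower values of the 5 genes was not tested.

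**Figure D3:**
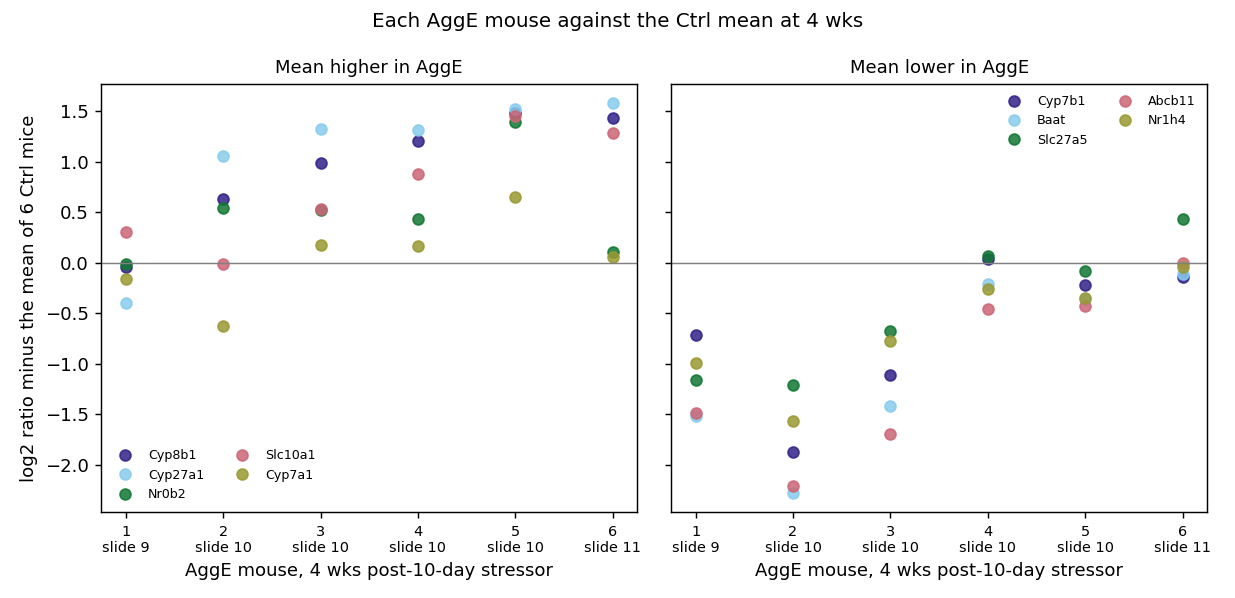
Log2 ratio of each AggE mouse at 4 wks minus the mean of the 6 Ctrl mice (vertical axis) by mouse and slide (horizontal axis), for the 5 genes with a higher AggE mean (left) and the 5 with a lower one (right). In this ratio to the reference, mice 1 to 3 are low for all 5 genes on the right and mice 4 to 6 lie within 0.45 of the Ctrl mean.

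Slides could be compared at 4 wks to a small extent. AggE mouse 1 was the only AggE mouse at 4 wks that shared a slide with Ctrl mice, slide 9 with Ctrl mice 4, 5 and 6. On that slide AggE minus Ctrl was 0.00 for Cyp27a1, 0.11 for Cyp8b1 and -0.03 for Nr0b2. The mouse 1 spots of Cyp27a1 and Nr0b2 were not well above background, nor were the Nr0b2 spots of Ctrl mice 4 and 5. The values of Cyp27a1 and Nr0b2 therefore rest on spots near background. For the genes with lower AggE means, AggE minus Ctrl was more negative there than overall: -1.72 for Baat, -1.30 for Abcb11, -1.07 for Nr1h4, -0.95 for Slc27a5 and -0.79 for Cyp7b1. Each of these values comes from mouse 1 alone, already described as below every Ctrl mouse for all of these genes. The Ctrl mice of slides 8 and 9 did not overlap for 2 of 10 genes, a share near the 23.3% over all genes. Cyp27a1 averaged 1.02 in the 3 Ctrl mice on slide 8 and 0.22 in the 3 on slide 9, and Baat 5.75 and 6.16. For the other 8 genes the Ctrl mice of the 2 slides overlapped, Cyp8b1 (0.95 and 0.64) and Nr0b2 (0.05 and 0.10) among them. With slide as a fixed term the 4 wk difference was 0.62 ± 0.42 (SE) for Cyp8b1, 0.18 ± 0.42 for Cyp27a1 and -0.03 ± 0.27 for Nr0b2, and none was called. The genes with lower AggE means were not called with it either.

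**Figure D4:**
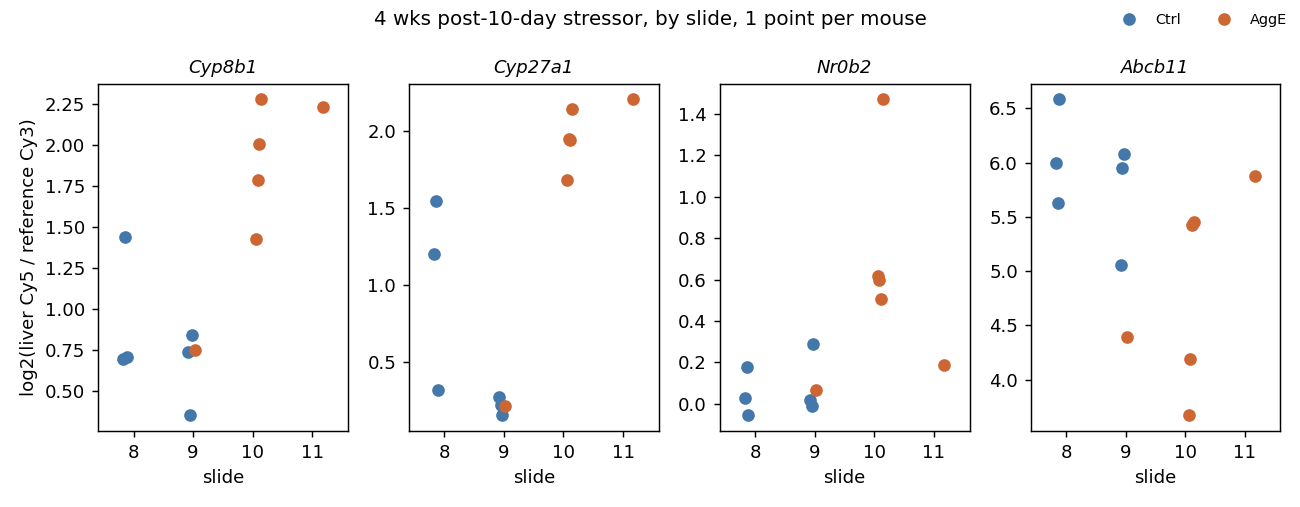
Log2 ratio of liver Cy5 to reference Cy3 (vertical axis) of each mouse at 4 wks by slide (horizontal axis) for Cyp8b1, Cyp27a1, Nr0b2 and Abcb11, Ctrl in blue and AggE in orange. The 1 AggE mouse on slide 9 sits among the Ctrl mice of that slide for the first 3 genes and below them for Abcb11. Its spots for Cyp27a1 and Nr0b2 were not well above background.

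Direction and calls at 4 wks were both followed over other settings. Over 15 other settings of background correction, normalization, probes, weights and blocks, Cyp8b1 stayed higher in AggE by 0.35 to 1.60 and Cyp27a1 by 0.18 to 1.64, while Nr0b2 ran from -0.03 (slide as a fixed term) to 1.29. Calls remained under 5 of these settings for Cyp8b1, 4 for Cyp27a1 and 4 for Nr0b2, with adjusted p-values from 0.00423 to 0.577, from 0.00354 to 0.871 and from 0.00606 to 0.971. Abcb11 ran from -1.52 to -0.19 and Baat from -1.74 to -0.19, and neither was called under any of the 15. Estimates on both sides of 0 were found for Cyp7a1 (-0.70 to 0.84), Cyp7b1 (-1.43 to 0.18) and Slc27a5 (-0.97 to 0.15). Leaving out 1 mouse gave 0 calls of 10 without AggE mouse 2, 3 or 5 or Ctrl mouse 3, 4 or 5, and 1 without AggE mouse 4 (Nr0b2), Ctrl mouse 1 (Cyp27a1) or Ctrl mouse 6 (Nr0b2). The count was 2 without AggE mouse 6 (Abcb11 and Nr0b2), 3 without AggE mouse 1 and 4 without Ctrl mouse 2, where Slc10a1 joined the 3.

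**Figure D5:**
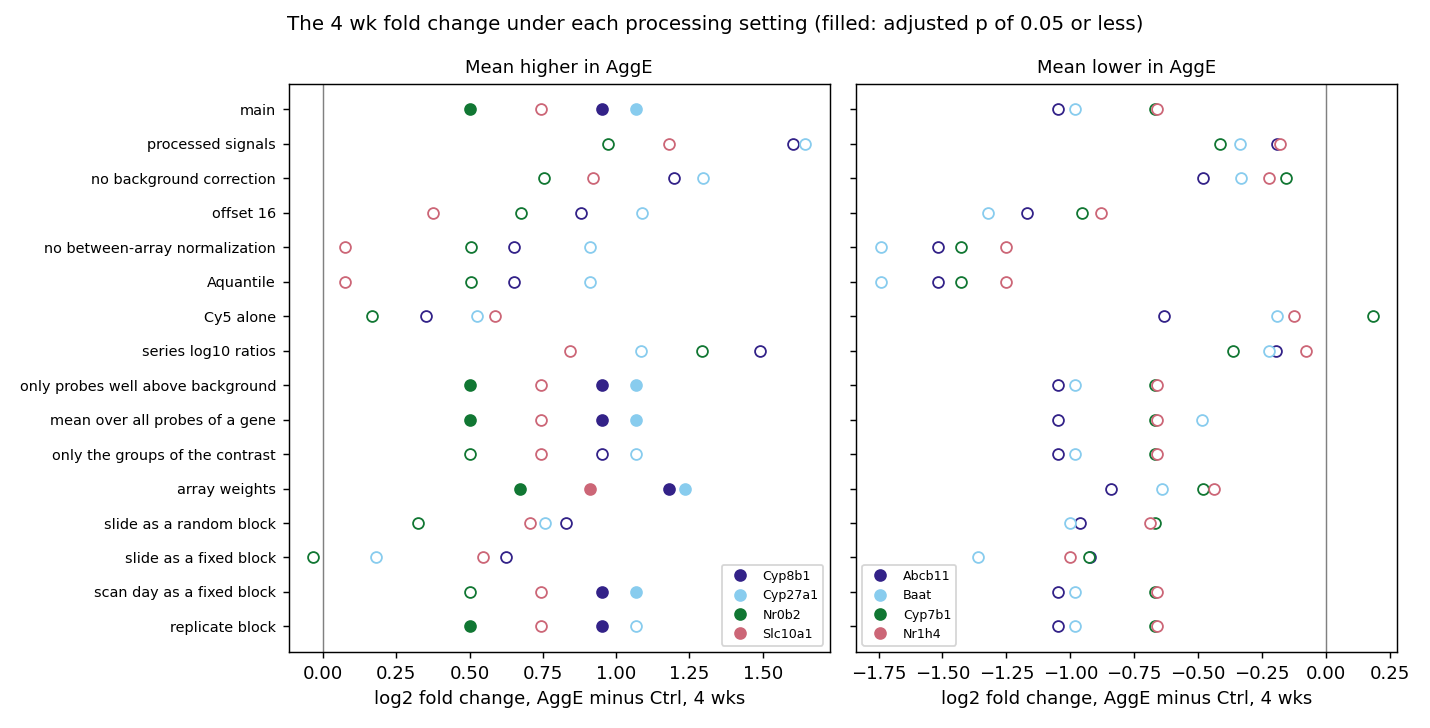
Log2 fold change of AggE over Ctrl at 4 wks (horizontal axis) under the main setting and 15 others (vertical axis), for 4 genes with a higher mean (left) and 4 with a lower mean (right), filled where the adjusted p was 0.05 or less. Points keep to one side of 0 except Nr0b2 with slide as a fixed term (-0.03) and Cyp7b1 with Cy5 alone (0.18), and Slc27a5 and Cyp7a1, which also cross 0, are not drawn.

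The brightness of a probe also moved with direction at 4 wks. With all genes split by mean liver signal into 5 classes of equal size, the median log2 difference was -0.12 in the brightest class and between -0.01 and 0.04 in the other 4, and the brightest held 229 of the 458 genes called lower. All 5 members with lower means lay in the brightest class, together with Cyp7a1 and Slc10a1, while Cyp8b1 and Cyp27a1 lay in the next and Nr0b2 in the middle one. The part of brightness in the members' differences was not tested.

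Other genes of bile acid handling were read from 3 lists. Of 14 other synthesis enzymes, 15 other transporters of bile acids and bile lipids and 21 other regulators on the array, none was called in any contrast by limma's adjusted test. At 4 wks 3 synthesis enzymes (2 higher, 1 lower), 5 transporters (1 higher, 4 lower) and 6 regulators (2 higher, 4 lower) passed the unadjusted limit, beside 22.4% of all genes. The medians of the 3 lists were then -0.19, -0.05 and -0.13, with 11 of 14, 8 of 15 and 14 of 21 genes lower. Nearest to a call at 4 wks were Fabp1, the liver fatty acid binding protein, at -0.98 ± 0.29 (SE, adjusted p = 0.0527) and Ephx1, the microsomal epoxide hydrolase, at 0.73 ± 0.22 (adjusted p = 0.0610), both singled out after their values were seen. At 24 hrs post-5-day, 2 enzymes and 1 regulator were lower and 1 transporter higher and 1 lower at the unadjusted limit, beside 16.8% of all genes, and list medians were -0.07, -0.09 and -0.16. At 24 hrs post-10-day no gene of the 3 lists passed either limit in limma's test, and at 1.5 wks 1 enzyme and 1 regulator passed the unadjusted limit, both higher.

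Acute phase genes, which the liver switches on in inflammation, were called at the 24 hr points. Of its 16 genes 10 were called higher at 24 hrs post-5-day, with a median log2 difference of 1.88. With slide as a random block only 9 of all genes were called at this point and 6 at 24 hrs post-10-day, so not all of the list's calls hold there. The smallest p-values were those of Saa3 (4.23 ± 0.38 SE, adjusted p = 2.4e-08), a serum amyloid A, of Lcn2 (adjusted p = 4.98e-08), the iron-scavenging lipocalin, and of Apcs (2.26 ± 0.25, adjusted p = 1.18e-06), serum amyloid P. Lcn2 was well above background on all 5 AggE arrays and no Ctrl array, and its Cy5 signal, read without a dye swap, gave AggE livers a level at least 6.27-fold higher. At 24 hrs post-10-day 7 of 16 were called higher with a median of 1.34, with Saa3 (3.32 ± 0.38, adjusted p = 2.54e-06), Saa1 (3.49 ± 0.44, adjusted p = 1.33e-05) and Lcn2 (at least 5.28-fold higher, adjusted p = 2.54e-06) at the smallest p-values. At 1.5 wks none was called and at 4 wks only Serpina3n (1.34 ± 0.35, adjusted p = 0.0318). Of 13 clock genes 1 was called in all, Npas2 at 24 hrs post-5-day (adjusted p = 0.00707), where it was not well above background on any of the 9 arrays, so no fold is given. The clock list's medians were -0.07, 0.03, -0.04 and 0.06 in the order of the contrasts.

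Markers of other cell types were read at 4 wks, where members were called. Of 12 cholangiocyte markers 1 was called, Epcam, an epithelial adhesion molecule, lower in AggE (adjusted p = 0.0246). It was named after its values were seen, and it was well above background on 1 Ctrl array and no AggE array, so no fold is given. The summed ratio of the cholangiocyte list ran from 9.42 to 11.9 in Ctrl and from 9.39 to 10.5 in AggE, and Epcam, Cftr, Tff2, Cldn4 and Ggt1 were not well above background on any AggE array. Ctrl mouse 6 stood apart in signal, with 79.6% of all probes well above background against 56.4% to 64.3% in the other Ctrl mice and 51.1% to 67.6% in AggE mice. None was called of 10 gallbladder and gut, 12 leukocyte, 10 Kupffer cell, 11 stellate and endothelial, 8 pancreas and 8 erythroid, muscle and adipose markers, with limma's unadjusted limit passed by 3, 1, 2, 2, 1 and 1, beside 22.4% of all genes. Those of the first 4 lists were lower in AggE and those of the last 2 higher. The gallbladder and gut list's summed ratio ran from 29.1 to 74.9 in Ctrl and from 22.2 to 33.7 in AggE. The Kupffer list's summed ratio ran from 50.2 to 88.1 in Ctrl and from 30.3 to 60.5 in AggE, and that of the hepatocyte list from 337 to 683 and from 236 to 460. Such sums are carried most by the genes with the highest ratios. Of the gallbladder and gut list 5 genes were higher and 5 lower in AggE, and the same held for the Kupffer list. The median log2 differences of these lists were 0.007 and -0.008, beside 0.009 over all genes. The part of these cell types in the values of the bile acid genes was not tested.

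Across the 39 arrays pairs of the genes were alike to different degrees, given here as a description over arrays that share slides and groups. The closest pairs were Cyp27a1 with Slc10a1 (Pearson r = 0.831), Cyp7a1 with Slc10a1 (0.775), Slc27a5 with Abcb11 (0.760) and Slc27a5 with Nr1h4 (0.758), and the most opposed pair was Cyp27a1 with Abcb11 (-0.322). After each group's mean was taken out, Slc27a5 and Nr1h4 (0.796), Slc27a5 and Abcb11 (0.751) and Baat and Nr1h4 (0.750) were closest. Among 6402 other genes well above background on at least 30 arrays, the 3 most like Baat were Slco2b1 (0.962), Ugt2a3 (0.947) and Ugt2b5 (0.936). For Cyp27a1 they were Dmac2 (0.948), Inhbc (0.897) and Cyp4f18 (0.890), and for Slc10a1 Stab2 (0.915), Lcat (0.915) and Serpina11 (0.911). For Slc27a5 they were Serpind1 (0.912), Dnajc22 (0.785) and Tmprss6 (0.783), for Abcb11 Serpind1 (0.888), Ces3b (0.867) and Ephx2 (0.859), and for Nr1h4 Oplah (0.870), Ugt2b37 (0.822) and Spp2 (0.820). For Cyp8b1 they were Csrp3 (0.777), Cyp2u1 (0.752) and Mvd (0.750).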

How the data were processed

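Liver RNA was labelled with Cy5 and a common mouse reference RNA with Cy3, with no dye swap, and hybridised to 4-array slides of a mouse gene expression array, 39 arrays in all. The deposited intensity values are the median spot and background brightness and the processed signal of each channel, extracted by the authors with Feature Extraction (10.7 per the methods, 11.5.1.1 per the file headers). The deposited log10 ratios of the series table equal the arrays' own ratios within 0.005 and were used only as an alternative, with ratios listed at 0 left out.

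Intensities were corrected with normexp (offset 50) and normalized by loess within and quantile between arrays in limma 3.58.1 (R 4.3.3). Outlier spots, 0.295% to 1.46% an array, and control spots were left out. The 25903 RefSeq probes, 24375 of them named (17016 genes), were fitted in 1 model with 8 group means, eBayes and Benjamini-Hochberg adjustment, and p-values for members come from limma. The fit was tested on simulated data. No 2 arrays were duplicates (correlations of 0.686 to 0.984 over probes). Each array is a separate mouse by the labels. Groups with 4 to 6 mice limit the precision.

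The members and gene lists were chosen with earlier results of these data known. Named are all 10 members in every contrast, listed bile acid genes called at 0.05, up to 3 acute phase or clock genes a contrast, and the 3 genes most like a member over 39 arrays, some of which are not reported here. Alternatives covered background correction, normalization, Cy5 alone, probes, samples, weights, slide, scan day, replicate block and leaving out each mouse. Plasma measurements of the study were not analysed here.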

Additional observations from a re-analysis of the deposited data

Results flagged for a closer look

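Of 78 sets of 4 to 6 mice (10 genes in 8 groups, less 2 sets with 3 measured mice), 2 held a mouse whose gap to its nearest neighbour was large against the range of its group by Dixon's 95% critical value, which chance reaches in about 1 of 20 sets. Cyp27a1 in AggE mouse 1 at 4 wks was 0.22, on a spot not well above background, with the next mouse at 1.68. Nr1h4 in Ctrl mouse 1 taken 24 hrs post-5-day stressor was 3.48, with the next at 3.87. No difference between contrasts passed the adjusted limit for any of the 10 genes.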

How the results depend on the processing

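The 3 calls at 4 wks became 0 of 10 with the processed signals of the scanner software, with no background correction, with a normexp offset of 16, with no normalization between arrays or Aquantile (which leave the ratios the same), with Cy5 alone, with the log10 ratios of the series table, with only the groups of the contrast, and with slide as a random block or as a fixed block. Nr0b2 turned to -0.0331 with slide as a fixed block, and the cause was not tested. The count was 2 to 4 under the other 5 settings and under 2 other limits for a call (an adjusted p of 0.1, or 2-fold with an unadjusted p of 0.05), and leaving out 1 mouse gave 0 to 4. At 24 hrs post-5-day, Nr0b2 was called (1 of 10) with the processed signals and with Cy5 alone. Of the other bile acid genes, 0 at 24 hrs post-5-day became 3 with the processed signals, 2 with array weights and 1 with no background correction, an offset of 16, Cy5 alone or the series table, and 0 to 1 when 1 mouse was left out. At 4 wks the 0 became 8 with no normalization between arrays or Aquantile, 3 with array weights, 2 with only probes well above background or scan day as a fixed block, 1 with an offset of 16 or the mean over a gene's probes, and 0 to 4 when 1 mouse was left out. No member was called at 24 hrs post-10-day, at 1.5 wks or for a difference between contrasts under any setting. The fixed slide block could not be estimated for either 24 hr contrast.

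With the replicate block, 2 of 10 were called at 4 wks (Cyp8b1 and Nr0b2), and Cyp27a1 stayed at 1.07 with an adjusted p of 0.0552. The numbers do not pair the mice: over 18 same-numbered pairs the deviations from group means correlated from -0.447 to 0.501, 5 of them above 0.1.

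Over all genes the 689 calls at 4 wks ranged from 3 (series table) to 1801 (array weights) across these settings, with 33.5% higher in the main setting, 51.0% with no background correction, 44.1% with no normalization between arrays, 66.7% with Cy5 alone (4 of 6 calls) and 20.5% with only the groups of the contrast (16 of 78). The 559 calls at 24 hrs post-5-day ranged from 9 (slide as a random block) to 1157 (array weights). Estimates short of the unadjusted limit changed sign in 83 of 476 recomputed values. The number of mice and, for Nr0b2 and Cyp8b1, the signal over background limit these comparisons.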
